A study of Mus musculus with 45 samples.

Results

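The genes of RNA polymerase II, the general transcription factors and Mediator were followed in the mouse embryonic fibroblast line NIH-3T3 while their transcripts were made and lost. Members were the genes with Polr2, Gtf2, Taf or Med symbols among probe sets with exactly 1 symbol, each read from the probe set with the highest mean over all 45 arrays. This gave 73 of the 13232 genes measured that way: 11 Polr2, 15 Gtf2, 16 Taf and 31 Med genes. Selection by symbol also takes in Polr2m, Gtf2i, Gtf2ird1 and Gtf2ird2, which are not core initiation factors, Taf5l and Taf6l, which belong to the SAGA coactivator, the germ-cell relatives Gtf2a1l and Taf7l, and Med9os, a transcript opposite to Med9.

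The series was built to derive RNA half-lives, by its title. Total RNA was taken from untreated cells and from cells given actinomycin D, which blocks transcription, at 5 µg/ml for 1 h or 2 h. Other cells received 4-thiouridine (4sU), a uridine analogue built into new RNA, and their newly transcribed RNA was measured after 15 min and 30 min at 500 µM and after 60 min at 200 µM. Total RNA was measured beside it at 30 min and 60 min, and unlabelled pre-existing RNA at 60 min. Titles of a second 60 min pair of newly transcribed and total RNA contain 2F, and those at 15 min and 60 min contain mock; neither term is explained. All groups share 1 cell line at passages 5 to 15, seeded to 40% of the plate 24 h earlier. Fresh medium was given once about 80% was covered, so untreated cells may differ from treated ones in the medium change too. Each group had 3 arrays, and newly transcribed and total RNA at 30 min had 9 each.

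RNA polymerase II is the enzyme that makes messenger RNA, and its subunits include some that it shares with RNA polymerases I and III. The general factors TFIIA, TFIIB, TFIIE, TFIIF and TFIIH (Gtf2 genes) and TFIID (TBP with the Taf proteins) place the enzyme at the promoter. Mediator, built of head, middle and tail modules with a detachable kinase module, connects the enzyme with gene-specific activators.

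The promoters of 4 members are shown because the results turn on these genes: the Taf and the Med gene with the largest loss under actinomycin D, and the 2 Polr2 genes most depleted from newly transcribed RNA. Each sequence is the 100 bases before an annotated start from RefSeq (GRCm38.p6), 5′ to 3′ on the gene's strand, and capitals mark a CCAAT motif. For Med7 2 windows were given, and the first is shown.
Taf5 (chr19:47067648-47067747, plus strand): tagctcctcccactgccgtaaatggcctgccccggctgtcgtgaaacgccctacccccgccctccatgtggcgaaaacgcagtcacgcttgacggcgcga
Med7 (chr11:46436847-46436946, plus strand): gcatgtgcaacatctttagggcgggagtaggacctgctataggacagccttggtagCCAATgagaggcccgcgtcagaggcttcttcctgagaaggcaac
Polr2i (chr7:30231974-30232073, plus strand): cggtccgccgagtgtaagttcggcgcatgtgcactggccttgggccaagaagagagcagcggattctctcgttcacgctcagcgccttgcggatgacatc
Polr2e (chr10:80039660-80039759, minus strand): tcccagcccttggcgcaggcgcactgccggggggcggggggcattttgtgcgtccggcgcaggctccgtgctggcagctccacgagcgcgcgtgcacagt
The stretches of Taf5, Polr2i and Polr2e held 11, 10 and 12 CG pairs and that of Med7 held 3. A window of 250 bases before to 50 after the start was given for 64 of the 73 members. Where a gene had several windows, the first was read. Searched on both strands, CCGGAAG, the core that Ets factors bind, lay in 29.7% of these 64 windows, against 11.9% of 17492 windows of protein-coding genes. AAGATGGC, the core bound by YY1, lay in 10.9% of the members' windows against 3.22%. TATAAA lay in 18.8% against 13.3%, and CCAAT in 35.9% against 39.0%. The 4 motifs do not contain each other, and such matches describe letters only. The members' windows held a median of 24 CG pairs, against 13 for protein-coding genes. CCGGAAG holds a CG itself, and its share was not adjusted for this.

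Some features of the arrays touch every result. Nothing states that replicates were separate cultures, so p-values reflect how far arrays differ, and this may be technical. The 9 arrays at 30 min fell into 3 sets of 3, with replicates 1, 4 and 7, 2, 5 and 8, and 3, 6 and 9 deviating together: same-set deviations from the group mean correlated at 0.46 to 0.722 for newly transcribed RNA and 0.607 to 0.896 for total RNA, against at most 0.459 and 0.0381 in the other pairs. Results at 30 min are therefore also given with these sets averaged to 3 samples a group where that ends a call. All other standard errors and p-values at 30 min treat the 9 arrays of a group as independent, so they are likely too small. The first 60 min experiment was the loosest, with mean correlations to the other arrays of the group of 0.861 to 0.922 for newly transcribed RNA and 0.904 to 0.947 for total RNA, against 0.933 to 0.996 in all other groups. The fibroblast markers Vim, Col1a2, Thy1 and Pdgfrb had 1128 to 18433 intensity units in untreated cells, and Epcam, Krt8, Adgre1, Cdh5 and Des had 4.79 to 10.4, near the floor. Myc, a short-lived message, fell by 3.16 ± 0.19 on the log2 scale after 1 h of actinomycin D and by 5.38 ± 0.19 after 2 h (adjusted p = 1.4e-05 and 1.1e-07, limma). At 2 h Myc had 10.9 to 16.9 units, near the floor, so the second size is a rough one. Actb changed by -0.10 at both times. In bulk RNA, fewer cells of a kind and less RNA per cell cannot be told apart.

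Newly transcribed RNA was first set against total RNA at 30 min, which asks how fast a transcript is made relative to its amount. Levels are the deposited GCRMA intensities, and a change is a log2 difference of group means ± its standard error from limma over all probe sets with a mean log2 of at least 5 (an intensity of 32). Calls needed a p below 0.05 after Benjamini-Hochberg adjustment and a fold change of at least 2. Intensities carry no mass of the RNA fractions, so the differences rank transcripts against each other and are no shares of molecules. Of 67 members tested, 10 were enriched in newly transcribed RNA, 23 were depleted and 34 were not called. The share called among all 16044 probe sets was 49.3%, with 23.7% enriched and 25.6% depleted, so the members as a whole were called about as often as any probe set. Newly transcribed and total arrays did not overlap for 37 members, against 53% of all probe sets. The median change was -0.48 for the members and -0.14 for all probe sets. The classes had unlike medians of -1.51 (Polr2), -0.55 (Gtf2), 0.14 (Taf) and -0.24 (Med). Gtf2a1l, Gtf2h3, Taf6l, Taf7l, Med27 and Med9os stayed below the filter.

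**Figure D1:**
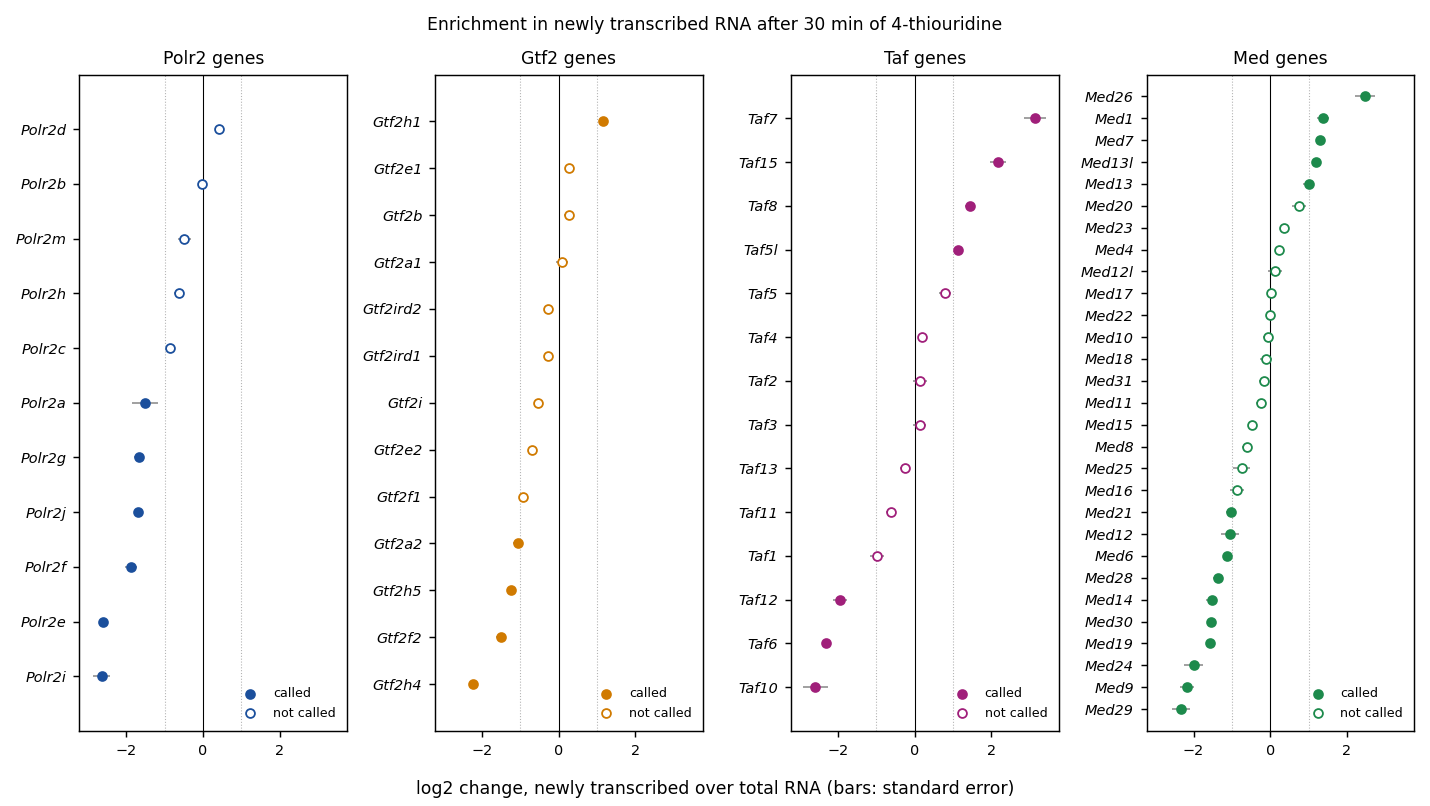
Log2 change of newly transcribed over total RNA at 30 min for the 67 members tested, in 4 panels by class; points are limma estimates, bars their standard errors, filled points are called and dotted lines mark a fold of 2. No Polr2 gene lies to the right of the upper dotted line, while the Taf panel runs from -2.59 (Taf10) to 3.15 (Taf7).

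Among the polymerase subunits, limma called 0 of 11 enriched and 6 depleted, against 1 and 9 at an unadjusted p below 0.05. Polr2i, the small subunit RPB9 that helps fidelity and RNA cleavage, had 48.2, 94.8 and 189 intensity units (lowest, median, highest of 9) in newly transcribed RNA, against 494, 672 and 746 in total RNA. Polr2e, a subunit shared with polymerases I and III, had 94.9, 109 and 166 in newly transcribed RNA, against 615, 674 and 863 in total RNA. Both had every newly transcribed array below every total array. Their log2 changes were -2.64 ± 0.23 and -2.60 ± 0.11 (adjusted p = 2e-09 and 1e-13, limma). Polr2f, also shared among the polymerases, had 155, 196 and 326 in newly transcribed RNA, against 574, 786 and 953 in total RNA, a change of -1.88 ± 0.16 (adjusted p = 2e-09, limma). The assembly subunit Polr2j changed by -1.69 ± 0.09 and the stalk subunit Polr2g by -1.67 ± 0.13, both without overlap of the groups. The other stalk subunit, Polr2d, was not called: it had 161, 187 and 250 in newly transcribed RNA, against 117, 146 and 157 in total RNA, a change of 0.41 ± 0.10. Polr2b, the second-largest subunit, changed by -0.03 ± 0.07. Polr2c (-0.86 ± 0.10), Polr2h (-0.63 ± 0.12) and Polr2m (-0.48 ± 0.18) were not called either.

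Polr2a, the catalytic subunit whose tail recruits processing factors, was the 1 depleted subunit whose groups overlapped. Its 9 newly transcribed arrays had 76.5 to 322 units, against 167 to 635 in total RNA, and it changed by -1.51 ± 0.34 (adjusted p = 4.1e-04, limma). The spread followed the sets of arrays. In total RNA, replicates 2, 5 and 8 had 184, 167 and 184 units, replicates 1, 4 and 7 had 412, 452 and 378, and replicates 3, 6 and 9 had 635, 587 and 623. In newly transcribed RNA, replicates 1, 4 and 7 were the high ones, at 211, 322 and 214. With the sets averaged, the call was kept at an adjusted p of 0.045.

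Of 13 Gtf2 genes tested, 1 was enriched and 4 were depleted, and TFIIH subunits stood at both ends. Gtf2h1, its p62 subunit, had 435, 668 and 823 units in newly transcribed RNA, against 237, 292 and 337 in total RNA, a change of 1.15 ± 0.11 (adjusted p = 1.2e-08, limma). Gtf2h4, the p52 subunit, had 72.9, 82.1 and 109 in newly transcribed RNA, against 339, 381 and 494 in total RNA, a change of -2.23 ± 0.10 (adjusted p = 1.9e-13, limma). The groups of both genes lay apart, in opposite directions, although the proteins sit in the same complex. The small subunit Gtf2h5 changed by -1.25 ± 0.10 and Gtf2f2, the smaller subunit of TFIIF, by -1.51 ± 0.14. TFIIA's small subunit Gtf2a2, named after its values were seen, changed by -1.07 ± 0.11. Gtf2e1 of TFIIE (0.27 ± 0.10) and Gtf2b, the TFIIB that bridges TBP and the polymerase (0.26 ± 0.12), were not called. The probe set of Gtf2h4 is of a kind that may cross-hybridise, and those of Polr2e, Taf4 and Taf8 are of a kind that matches several transcripts, by their suffixes.

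The Taf genes spread the widest, with 4 of 14 enriched and 3 depleted. Taf7, which binds TAF1 and restrains its acetyltransferase activity, had 94.7, 206 and 417 units in newly transcribed RNA, against 8.74, 20.3 and 35.4 in total RNA, a change of 3.15 ± 0.29 (adjusted p = 4.6e-09, limma). Taf15, an RNA-binding protein, had 560.1, 1052 and 1564 in newly transcribed RNA, against 138, 207 and 385 in total RNA, a change of 2.18 ± 0.21 (adjusted p = 7.8e-09, limma). Taf8, the TFIID partner of TAF10, had 129, 173 and 265 in newly transcribed RNA, against 44.97, 67.8 and 75.5 in total RNA, a change of 1.45 ± 0.14 (adjusted p = 7e-09, limma). All 9 newly transcribed arrays lay above all total arrays for these genes. A second probe set of Taf7 changed by 3.26 ± 0.22. Taf5l changed by 1.14 ± 0.10.

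The depleted Taf genes were Taf10, Taf6 and Taf12. Taf10, shared by TFIID and SAGA, had 191, 236 and 882 units in newly transcribed RNA, against 1197, 2366 and 2840 in total RNA, a change of -2.59 ± 0.32 (adjusted p = 3.8e-07, limma). Taf6 had 10.5, 14.7 and 20.0 in newly transcribed RNA, against 61.1, 70.7 and 84.7 in total RNA, a change of -2.31 ± 0.11 (adjusted p = 5.6e-13, limma). Taf12 changed by -1.95 ± 0.18 (adjusted p = 6.1e-09, limma). The groups lay apart in each of them. Taf7 in total RNA, and Taf6, Taf12, Med9 and Med24 in newly transcribed RNA, had means below the filter, so they were tested through the other fraction and had to differ, and the size of their change is less certain.

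Of 29 Med genes, 5 were enriched and 10 were depleted. Med26, a subunit that brings elongation factors to the promoter, had 115, 147 and 401 units in newly transcribed RNA, against 22.02, 38.0 and 42.7 in total RNA, a change of 2.47 ± 0.26 (adjusted p = 3.1e-08, limma). Med1, the contact for nuclear receptors, had 948, 1320 and 1391 in newly transcribed RNA, against 325, 482 and 721 in total RNA, a change of 1.37 ± 0.16 (adjusted p = 1.4e-07, limma). Med7, of the middle module, had 467, 611 and 744 in newly transcribed RNA, against 185, 255 and 331 in total RNA, a change of 1.30 ± 0.11 (adjusted p = 2.6e-09, limma). The groups were separate in all of them. Med13l and Med13, the related subunits that tie the kinase module to Mediator, completed the enriched ones at 1.20 ± 0.10 and 1.00 ± 0.14. Med13 was named after its values were seen. It only just reached a fold of 2, and another of its probe sets was not called (0.82 ± 0.17).

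The depleted Med genes came from several modules. Med29 of the tail had 18.4, 32.1 and 82.2 units in newly transcribed RNA, against 135, 180.4 and 262 in total RNA, a change of -2.32 ± 0.24 (adjusted p = 2.1e-08, limma). Med9 of the middle module had 18.1, 25.6 and 51.6 in newly transcribed RNA, against 113, 131 and 156 in total RNA, a change of -2.17 ± 0.18 (adjusted p = 9.5e-10, limma). Med24 of the tail had 11.1, 19.9 and 23.1 in newly transcribed RNA, against 31.7, 84.5 and 119 in total RNA, a change of -2.002 ± 0.24 (adjusted p = 2.8e-07, limma). None of these groups overlapped.

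Which probe set was read bore on the call of 8 members. Of 15 members with 2 or more probe sets tested at 30 min, 7 had the same call on all, 8 had a call on some only and 0 had opposite calls. The other probe sets of Med1 changed by 2.56 ± 0.25, 0.72 ± 0.12 and 0.57 ± 0.21, those of Med13l by 3.89 ± 0.36 and 0.16 ± 0.15. Other probe sets of Gtf2f1 (-1.92 ± 0.30), Gtf2i (-1.43 ± 0.29) and Med25 (-2.55 ± 0.14) were called lower where the probe set read was not (-0.94, -0.55 and -0.74). For Med15, a tail subunit that activators bind, the probe set read changed by -0.48 ± 0.11 and another by 2.39 ± 0.17. With the mean of all probe sets of a gene, Med1, Taf10 and Med9 lost their call at 30 min, at 0.58, -0.93 and -0.86; the second probe sets of Taf10 and Med9 had a mean log2 of 3.86 and 4.50, below the filter.

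The same fractions at 60 min gave lower counts in the looser experiment and like ones in the 2F set. In the first 60 min experiment 6 of 66 members were enriched and 18 depleted, where 39.5% of all probe sets were called (17.7% and 21.8%), and the fractions did not overlap for 32 members and for 49.6% of all probe sets. In the 2F experiment 9 of 69 were enriched and 20 depleted, where 45.8% of all probe sets were called (24% and 21.8%), and the fractions did not overlap for 56 members and for 85.9% of all probe sets. The 5 members enriched in all 3 experiments were Taf5l, Taf8, Med7, Med13l and Med26. Another 14 were depleted in all 3: Polr2e, Polr2f, Polr2g, Polr2i, Polr2j, Gtf2a2, Gtf2h4, Taf6, Taf10, Taf12, Med9, Med14, Med28 and Med30. These were 7.69% and 21.5% of the 65 members tested in all 3, against 11.7% and 13.6% of 14763 probe sets. The difference in shares was not tested. In the first 60 min experiment, 9 of 15 members with 2 or more probe sets tested had a call on some only. Other probe sets of Gtf2h4 (-0.91 ± 0.55 and -1.32 ± 0.51), Med14 (-0.80 ± 0.26) and Med13l (0.59 ± 0.23) were not called there. Another of Med13l was called (1.66 ± 0.31). Among the members tested, 0 were called in both directions, a count not made over all probe sets. The 3 experiments share no arrays.

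Single arrays show the agreement and its limits. Taf5l had 818, 809 and 938 units in newly transcribed RNA at 60 min, against 204, 234 and 165 in total RNA, a change of 2.10 ± 0.23 (adjusted p = 1.5e-04, limma). In the 2F set it had 507, 590.0 and 601 in newly transcribed RNA, against 175, 173 and 178 in total RNA, a change of 1.69 ± 0.10 (adjusted p = 4e-07, limma). Both sets kept the fractions apart for Taf5l. Med26 had 342, 254 and 281 in newly transcribed RNA at 60 min, against 37.7, 40.4 and 40.0 in total RNA, and 183, 161 and 235 in newly transcribed RNA of the 2F set, against 39.9, 31.7 and 35.1 in its total RNA. Polr2i had 242, 93.5 and 77.5 in newly transcribed RNA at 60 min, against 610.0, 384 and 486 in total RNA, and 110, 125 and 156 in newly transcribed RNA of the 2F set, against 621, 605 and 639 in its total RNA. Replicate 1 of the newly transcribed arrays was the high one for Polr2i in the first experiment, and the 2F arrays lay close together.

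Some members were called at 60 min in 1 set only. Taf5, the scaffold of TFIID, was enriched in the 2F set, with 214, 211 and 232 units in newly transcribed RNA, against 79.3, 73.6 and 82.7 in total RNA (1.48 ± 0.09, adjusted p = 6.3e-07, limma). In the first experiment it had 540, 260 and 241 in newly transcribed RNA, against 95.4, 277 and 166 in total RNA, and the groups overlapped. Gtf2h3 of TFIIH, which was below the filter at 30 min and in the first 60 min experiment, was depleted in the 2F set, with 17.1, 22.1 and 19.6 units in newly transcribed RNA, against 59.6, 68.5 and 75.4 in total RNA (-1.79 ± 0.13, adjusted p = 1.4e-06, limma). Its newly transcribed arrays lay below 32, so it passed the filter through total RNA and had to differ. Newly transcribed RNA also averaged below 32 for the depleted Taf6 and Taf12 in all 3 experiments, Med27 in both at 60 min, Med12l in the first of these, and Med9 and Med24 at 30 min. These passed through total RNA or, in the first 60 min experiment, through total and pre-existing RNA. Taf7 passed at 30 min and in the 2F set through newly transcribed RNA, with total RNA below 32. The difference in enrichment between the 2F set and the first 60 min set was called by limma for 0 of 66 members, where 0.0252% of all probe sets were called (0.0189% higher and 0.0063% lower). At an unadjusted p below 0.05 it was higher for 2 and lower for 2.

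**Figure D2:**
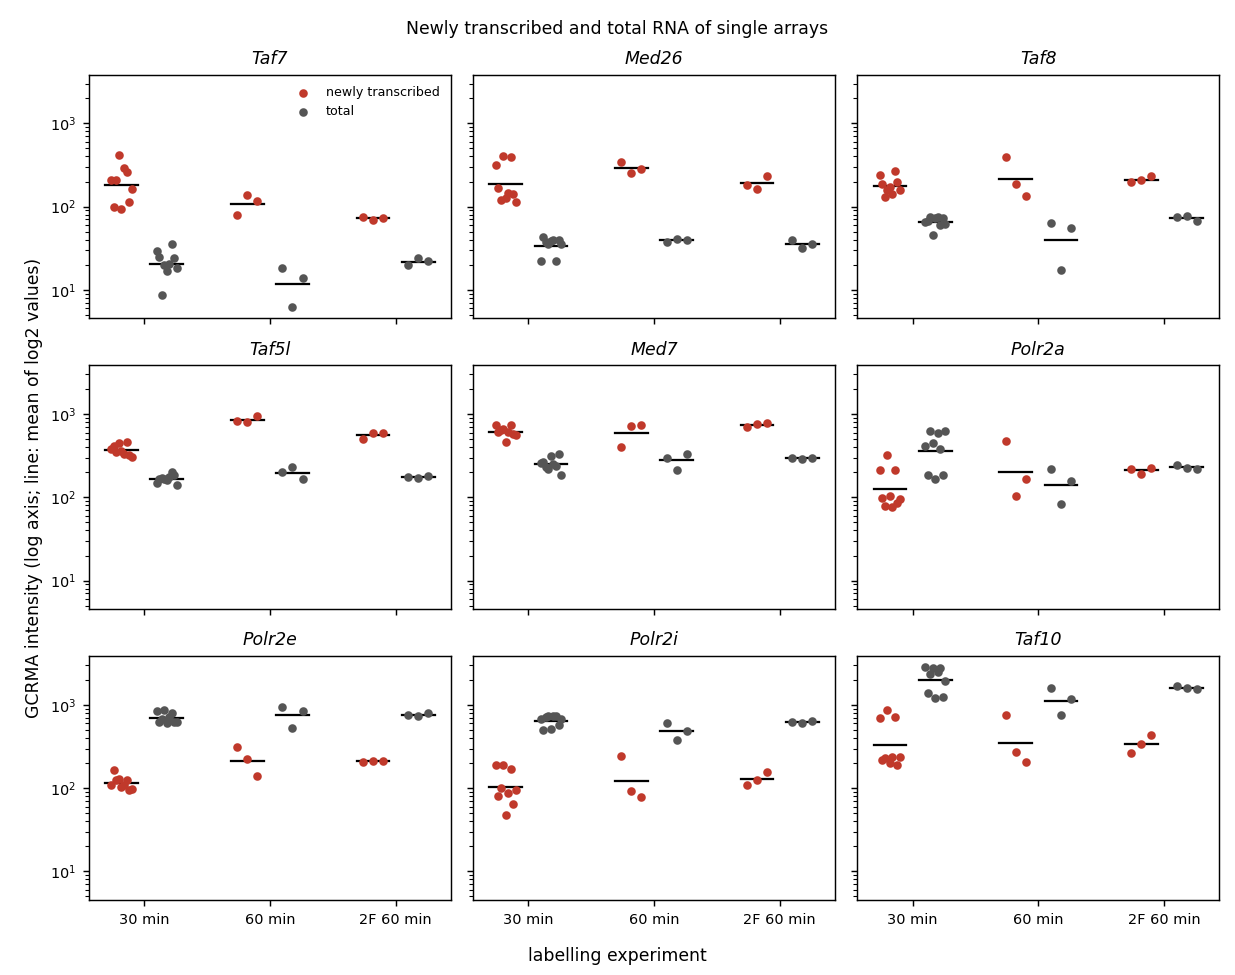
Intensities (log axis) of 9 members in single arrays of newly transcribed (left in each pair) and total RNA (right) in the 30 min, 60 min and 2F 60 min experiments; short lines are means of log2 values. Taf7, Med26, Taf8, Taf5l and Med7 have higher means in newly transcribed RNA in each experiment, and Polr2e, Polr2i and Taf10 have lower means.

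Pre-existing RNA, the fraction left after removal of labelled RNA, was set against total RNA at 60 min. Of 66 members, 1 was higher and 2 were lower, where 8.82% of all probe sets were called, 1.87% higher and 6.96% lower. The fractions did not overlap for 31 members and for 45.8% of all probe sets. Taf15 was lower by a wide margin, with 7.03, 8.09 and 8.78 units in pre-existing RNA, against 159, 202 and 167 in total RNA, a change of -4.46 ± 0.33 (adjusted p = 2.8e-05, limma). Its pre-existing arrays lay near the floor, so the size is a rough one and it passed the filter through the other fractions, while newly transcribed RNA at 60 min had 272, 232 and 116 units. Taf6 was higher, with 123, 151 and 108 units in pre-existing RNA, against 55.1, 15.9 and 40.1 in total RNA (1.94 ± 0.46, adjusted p = 0.025, limma). Its newly transcribed RNA had 16.1, 7.44 and 11.5 units, so Taf6 passed the filter mainly through pre-existing RNA, where it was high. Med1 was lower, with 388, 416 and 460 units in pre-existing RNA, against 688, 1182 and 774 in total RNA (-1.03 ± 0.27, adjusted p = 0.045, limma). Both were named after their values were seen. Without replicate 2 of total RNA, which was the extreme array for both, Taf6 changed by 1.42 (adjusted p = 0.053) and Med1 by -0.80 (adjusted p = 0.11), and each lost its call in other single-array omissions too. Other probe sets of 3 members were called lower in pre-existing RNA, that of Med15 by -3.82 ± 0.29, that of Med13l by -2.78 ± 0.31 and that of Med1 by -2.37 ± 0.28 (adjusted p = 3.5e-05, 2.5e-04 and 3.8e-04, limma). With the replicate number as a block, 2 members were higher instead of 1. Quantile normalization shifted the median of all probe sets by -0.10 here, to 0.01, and that of the members to 0.11, where it was 0.18.

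Actinomycin D then showed which transcripts fell relative to others once synthesis was blocked. Here too intensities carry no mass of RNA, so the changes rank transcripts against each other. A change near 0 does not show that no RNA was lost. After 1 h, limma called 0 of 67 members higher and 1 lower, where 6.15% of all probe sets were called, 2.57% higher and 3.58% lower; at an unadjusted p below 0.05, 16 were higher and 10 lower. That gene was Polr2a, with 131, 81.2 and 82.4 units at 1 h, against 219, 186 and 191 in untreated cells, a change of -1.05 ± 0.27 (adjusted p = 0.015, limma). The arrays at 1 h did not overlap the untreated ones for 28 members and for 49.9% of all probe sets. At 2 h Polr2a had 267, 137 and 137 units and was not called (-0.21 ± 0.27), replicate 1 being the high array at both times. Its level thus did not keep falling under the block. The fibroblast markers Col1a1 and Thy1 also dipped at 1 h and returned. Their geometric means at 0, 1 and 2 h were 6361, 1542 and 5412 units (Col1a1) and 1383, 700 and 1780 units (Thy1). Col1a2 moved less, at 11545, 9745 and 10592. What set the arrays at 1 h apart was not tested. The call at 1 h was lost without replicate 2 (-0.93, adjusted p = 0.058) or 3 (-0.94, adjusted p = 0.055) of the treated arrays and without replicate 1 of the untreated ones (-0.98, adjusted p = 0.054).

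After 2 h, limma called 0 of 67 members higher and 9 lower, where 9.96% of all probe sets were called, 0.538% higher and 9.42% lower. At an unadjusted p below 0.05, 9 were higher and 15 lower. The 13.4% of members that fell is thus not far above the share of all probe sets, and the median change was 0.07 for the members and 0.10 for all. The arrays did not overlap for 34 members and for 50.2% of all probe sets. By class, 5 of 13 Taf genes fell, 3 of 29 Med genes, 1 of 14 Gtf2 genes and 0 of 11 Polr2 genes. Gtf2a1l, Taf3, Taf7, Taf7l, Med26 and Med9os stayed below the filter. Another probe set of Med14 was called higher at 1 h (1.22 ± 0.27, adjusted p = 0.0073, limma) and at 2 h (1.12 ± 0.27, adjusted p = 0.0096), while the one read was not called (0.24 ± 0.14 at 2 h).

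Taf5 fell the furthest of the 67. It had 118, 167 and 119 units in untreated cells, 77.1, 76.1 and 97.3 at 1 h, and 8.25, 10.2 and 8.62 at 2 h. The loss at 2 h was -3.89 ± 0.17 (adjusted p = 2.3e-07, limma), of which -3.21 ± 0.17 came in the second hour, and the arrays at 2 h lay at the floor, so its size there is a rough one. Taf8 had 64.1, 79.2 and 75.7 in untreated cells, 53.7, 46.0 and 40.8 at 1 h, and 19.0, 24.0 and 30.9 at 2 h, below 32 (-1.59 ± 0.18, adjusted p = 1.1e-04, limma). Taf5l had 137, 166 and 128 in untreated cells, 120.4, 95.5 and 109 at 1 h, and 54.3, 61.9 and 60.9 at 2 h (-1.28 ± 0.13, adjusted p = 6.1e-05, limma). In these Taf genes no array at 2 h reached the untreated range, and Taf5 and Taf5l are related proteins that hold the same place in TFIID and in SAGA.

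Taf15 and Taf4 fell by the narrowest margin. Taf15 had 264, 247 and 275 units in untreated cells, 256, 207 and 224 at 1 h, and 115, 177 and 102 at 2 h (-1.04 ± 0.19, adjusted p = 0.0024, limma). Taf4, the partner of TAF12, had 235, 293 and 266 in untreated cells, 258, 146 and 141 at 1 h, and 108, 137 and 146 at 2 h (-1.03 ± 0.23, adjusted p = 0.0068, limma). Both lost the call by their fold under quantile normalization, at -0.96 each. Without replicate 1 at 2 h they changed by -0.96 and -0.90, Taf15 by -0.88 without replicate 3 at 2 h and Taf4 by -0.95 without replicate 2 of the untreated arrays, each short of a fold of 2. The mean of both Taf15 probe sets, the other of which had a mean log2 of 3.95, changed by -0.23 (adjusted p = 0.29).

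The other losses were in TFIIB and Mediator, and more of each came in the second hour than in the first. Med7 had 208, 247 and 258 units in untreated cells, 237, 289 and 261 at 1 h, and 45.4, 58.2 and 48.7 at 2 h (-2.23 ± 0.14, adjusted p = 1.8e-06, limma). Med17, the scaffold of the head module, had 223, 279 and 233 in untreated cells, 259, 189 and 170 at 1 h, and 61.1, 70.3 and 54.4 at 2 h (-1.99 ± 0.17, adjusted p = 1.7e-05, limma). Gtf2b had 279, 332 and 309 in untreated cells, 363, 352 and 348 at 1 h, and 113, 136 and 105 at 2 h (-1.38 ± 0.12, adjusted p = 1.9e-05, limma). For Med7 and Gtf2b the arrays at 1 h overlapped the untreated ones or lay above them, and the changes between 1 h and 2 h were -2.37 ± 0.14 and -1.59 ± 0.12. Med23, a tail subunit that relays MAP kinase signals, had 163, 203 and 163 in untreated cells, 151, 131 and 132 at 1 h, and 67.9, 82.3 and 68.5 at 2 h (-1.27 ± 0.13, adjusted p = 5.5e-05, limma).

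Set against 1 h, limma called 7 of 67 members lower and 0 higher at 2 h, where 9.6% of all probe sets were called, 2.28% higher and 7.32% lower; the arrays did not overlap for 30 members and for 49.3% of all probe sets. At an unadjusted p below 0.05, 9 were higher and 22 lower. They were Taf5, Med7, Med17, Gtf2b and, named after their values were seen, Med4 (-1.16 ± 0.13), Med8 (-1.14 ± 0.13) and Med31 (-1.14 ± 0.21). Med4 had 271, 346 and 268 units in untreated cells, 328, 377 and 321 at 1 h, and 137, 160 and 161 at 2 h. Quantile normalization moved the higher share of all calls to 20.3% at 2 h against untreated cells, where it was 5.4%, and to 39.9% for 2 h against 1 h, where it was 23.7%; the members had 0 higher calls at 2 h in the deposited scaling.

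**Figure D3:**
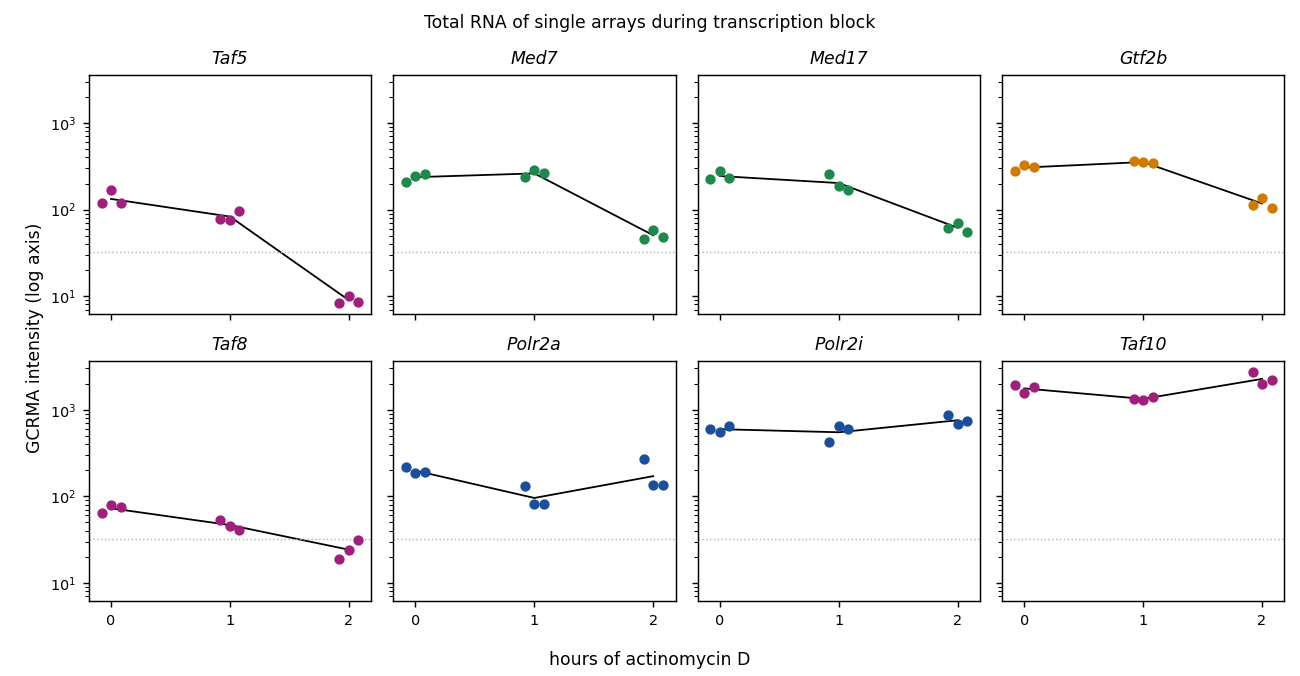
Intensities (log axis) of 8 members in single total RNA arrays at 0, 1 and 2 h of actinomycin D; black lines join the means of log2 values and the dotted line marks 32. Taf5, Med7, Med17, Gtf2b and Taf8 drop at 2 h, with Med7 and Gtf2b not called at 1 h, while Polr2i and Taf10 were not called at either time.

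Among the polymerase subunits 0 of 11 were called by limma at 2 h, and 0 had an unadjusted p below 0.05. Their changes lay between -0.22 and 0.34. Polr2i had 592, 558 and 642 units in untreated cells, 422, 650.0 and 604 at 1 h, and 859, 677 and 745 at 2 h. Polr2b had 859, 1030.4 and 944 in untreated cells, 1093, 1030 and 1004 at 1 h, and 777, 847 and 801 at 2 h. Neither was called, and a p above the threshold does not show equal levels.

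Members below the filter held a large difference too. Med26 had 42.5, 41.2 and 50.2 units in untreated cells, 4.93, 9.73 and 8.32 at 1 h, and 5.03, 7.83 and 21.3 at 2 h, so every treated array lay below every untreated one. It was not tested, as its mean over the 9 arrays was under 32. Taf7 had 16.8, 10.97 and 20.9 in untreated cells, 20.3, 41.4 and 30.4 at 1 h, and 12.7, 10.98 and 10.4 at 2 h, too close to the floor for an order. The germ-cell relatives Gtf2a1l and Taf7l reached at most 6.43 and 12.99 units on any array, and Med9os at most 32.5.

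Enrichment and loss were then set side by side, as they come from separate arrays. Across the 64 members tested in both, the change of newly transcribed over total RNA at 30 min and the change after 2 h of actinomycin D had a Spearman rho of -0.71 and a Pearson r of -0.59. Across all 14053 probe sets rho was -0.61. These points are genes read on the same arrays and are not independent, so no p is given. Of the 9 members that fell at 2 h, 5 were enriched in newly transcribed RNA in at least 1 experiment (Taf5, Taf8, Taf5l, Taf15 and Med7), or 55.6%, and 0 were depleted in any. Of the 1419 probe sets that fell at 2 h, 82% were enriched in at least 1 experiment and 1.48% were depleted in at least 1. These measures did not always go together: Med17 fell with a change of 0.01 ± 0.09 in newly transcribed RNA at 30 min, and Med1 was enriched with a change of -0.05 ± 0.14 at 2 h. Taf15 was near the floor in pre-existing RNA at 60 min (-4.46 ± 0.33 against total RNA). Yet it changed by -0.20 ± 0.19 after 1 h of actinomycin D, and by 0.15 ± 0.33 in newly transcribed over total RNA at 60 min. The reason was not tested.

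**Figure D4:**
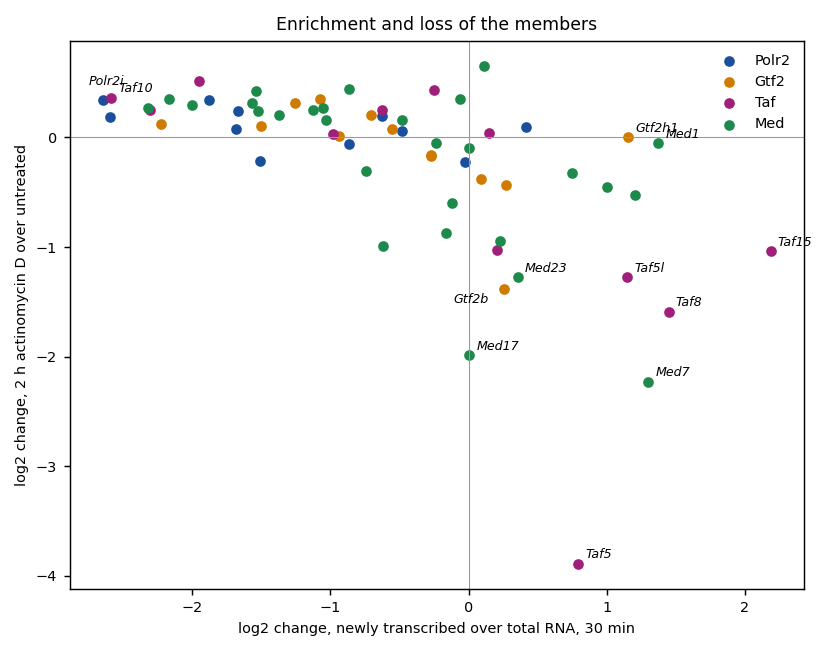
Log2 change of newly transcribed over total RNA at 30 min (x) against log2 change after 2 h of actinomycin D over untreated (y) for 64 members, coloured by class. Taf5, Med7, Taf8, Taf5l and Taf15 lie to the lower right, and the depleted Polr2 genes lie to the left near 0 on the y axis.

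Newly transcribed RNA at 15 min was set against that at 30 min, in separate experiments with the same 4sU dose. Of 62 members, 1 was higher at 15 min and 6 were lower, where 17.8% of all probe sets were called, 10.4% higher and 7.33% lower. The groups did not overlap for 20 members and for 36.6% of all probe sets. Polr2f was higher, with 585, 584 and 510 units at 15 min, against 155, 196 and 326 (lowest, median, highest) at 30 min (1.41 ± 0.24, adjusted p = 6e-04, limma). Med7 had 216, 288 and 171 at 15 min, all below the 467 to 744 at 30 min (-1.49 ± 0.17, adjusted p = 7.2e-05, limma). Taf7 (-1.66 ± 0.42), Taf5l (-1.08 ± 0.18), Med26 (-1.17 ± 0.41), Taf8 (-1.02 ± 0.27) and Med22 (-1.10 ± 0.19, named after its values were seen) were the other lower ones. Without replicate 3 at 15 min, 2 were lower, and Taf8 and Med26 were not called with the 30 min sets averaged (adjusted p = 0.07 and 0.061). No total RNA was measured at 15 min, so a change of level and of enrichment cannot be told apart.

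Total RNA at 30 min of 4sU was set against that of untreated cells, with 9 arrays against 3 from separate experiments. Limma called 0 of 68 members, where 0.618% of all probe sets were called (0.468% higher and 0.15% lower), and at an unadjusted p below 0.05, 3 were higher and 7 lower. The groups did not overlap for 5 members and for 7.13% of all probe sets. The median change was -0.04, and 1 member, Taf4, had an adjusted p below 0.05 at a fold under 2 (-0.48 ± 0.09).

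The enrichment at 60 min minus that at 30 min was higher for 4 and lower for 2 of 65 members, where 18.8% of all probe sets were called, 8.28% higher and 10.5% lower. Taf15 had a lower enrichment at 60 min, with 272, 232 and 116 units in newly transcribed RNA against 159, 202 and 167 in total RNA (difference -2.03 ± 0.43, adjusted p = 0.0027, limma). Polr2a had a higher one, with 479, 105 and 165 units in newly transcribed RNA at 60 min against 220.0, 83.5 and 158 in total RNA (2.01 ± 0.71, adjusted p = 0.042, limma). With the 30 min sets averaged, 0 members were called, and without replicate 1 of newly transcribed RNA at 60 min 0 were higher. The dose of 4sU differed between these experiments as well as the time, so these cannot be told apart.

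Other genes of the transcription machinery were listed from general knowledge. Of all probe sets, 23.7% were enriched and 25.6% depleted at 30 min, and the lists were not tested against these shares. Among 27 elongation genes, 6 were enriched and 4 depleted in newly transcribed RNA at 30 min, led by Ccnt1 (2.24 ± 0.17) and Ccnt2 (2.05 ± 0.27), the cyclins of the pause-release kinase P-TEFb, and Nelfe of the pausing factor NELF (-2.06 ± 0.18). Ccnt1 had 675 to 1062 units in newly transcribed RNA, against 127 to 297 in total RNA. Of the partners of TFIIH and TBP, 0 of 9 were enriched and 2 were depleted, Drap1 of the repressor NC2 (-2.61 ± 0.27) and Ccnh of the TFIIH kinase (-1.18 ± 0.25). Integrator, which cuts small nuclear and attenuated transcripts, had 0 of 14 enriched and 6 depleted, led by the scaffold Ints1 (-1.79 ± 0.16). RNA polymerase I had 0 of 5 enriched and 1 depleted (Polr1e, -1.51 ± 0.14), and RNA polymerase III had 2 of 9 enriched and 3 depleted, with Polr3f at 1.60 ± 0.10 and Polr3k at -2.08 ± 0.12. Among phosphatases of the polymerase tail and assembly factors, 0 of 14 were enriched and 2 depleted (Ssu72, -1.93 ± 0.14, and Ctdsp1, -1.62 ± 0.28), and the 3 partners of the Mediator kinase were not called.

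At 2 h of actinomycin D these lists held 2 lower of 9 TFIIH and TBP partners, 4 of 27 elongation genes, 3 of 14 Integrator genes, 2 of 14 tail phosphatases and assembly factors, and 0 among RNA polymerases I and III and the Mediator kinase partners. Of all probe sets, 9.42% were lower at 2 h, and the lists were not tested against this share. The following genes were named after their values were seen. Tbp, the TATA-binding core of TFIID, had 149, 170 and 151 units in untreated cells, 141, 167 and 146 at 1 h, and 50.9, 56.5 and 41.4 at 2 h (-1.67 ± 0.14, adjusted p = 1e-05, limma). Hexim1, which holds P-TEFb inactive, had 182, 234 and 261 in untreated cells, 214, 212 and 186 at 1 h, and 46.0, 53.7 and 49.5 at 2 h (-2.17 ± 0.14, adjusted p = 2.8e-06, limma). As for Med7, the arrays at 1 h overlapped the untreated ones and those at 2 h lay below them.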

How the data were processed

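The authors deposited intensities of 45 arrays processed by GCRMA (version not stated), per the submitters' processing notes. Trizol extraction and one-cycle labelling are given per the labels' protocols. Log2 of these deposited intensities was taken here. Of 31451 probe sets, 61 were controls and 25031 had exactly 1 symbol; 24934 matched the RefSeq table by Entrez identifier and 0 symbols changed. All value columns were used (0 unused). Precision is limited by the number of arrays.

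Each comparison was fitted with limma 3.58.1 (R 4.3.3) on the arrays of its experiment, with group as the only factor and p-values adjusted over all probe sets tested. Simulated data had these group sizes, independent noise in each array and changes in 200 probe sets. Of changes of 1.5 on the log2 scale, 94.8% were recovered for 2 h of actinomycin D. For newly transcribed over total RNA, 95.8% were recovered at 30 min and 43.8% at 60 min. Of changes of 3, 100%, 100% and 91.2% were recovered. The shared deviations within the sets of 3 at 30 min were not simulated, so the values at 30 min hold for independent arrays only. In the data 9.96% (2 h of actinomycin D), 49.3% (30 min) and 39.5% (60 min) of all probe sets were called, far more than 200. The adjusted p depends on how many probe sets change, so the simulated recovery need not hold for these data. Alternatives were quantile normalization, other filters, the mean of all probe sets of a gene, the adjusted p alone, 1 fit of all 45 arrays, a replicate block, parts of the 30 min arrays, leaving out each array of the groups of 3, and, added after seeing the data, the 30 min arrays averaged in threes.

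Named were Polr2a, the 3 largest increases and decreases per class at 30 min, up to 5 members per class called at 2 h of actinomycin D, up to 5 called in a difference between experiments, the highest and lowest mean per class, and up to 3 called members of each other list at 30 min, with Myc and Actb as reference points; others are marked as named after their values were seen. Members and lists were chosen with earlier results of these data known. Replicate numbers come from the titles. Same-numbered arrays deviated together, with every pair above 0.1, under actinomycin D at 1 h (r = 0.124 to 0.169) and 2 h (0.209 to 0.527), newly transcribed RNA at 60 min (0.142 to 0.293) and pre-existing RNA (0.206 to 0.382), and not in every pair elsewhere.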

Additional observations from a re-analysis of the deposited data

Results flagged for a closer look

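In 3 of 72 gene and group values tested, 1 array stood apart from the other 8 of its group. For independent arrays with a normal spread, chance gives about 1 in 20. The arrays at 30 min deviated in sets of 3, so that rate need not hold here. Taf8 had 44.97 units in total RNA replicate 4 at 30 min, against 60.9 to 75.5 in the others (gap of 0.584 of the range). Taf5 had 276 units in newly transcribed RNA replicate 2 at 30 min, against 214 to 241 in the others (0.529). Taf4 had 295 units in newly transcribed RNA replicate 7 at 30 min, against 198 to 218 in the others (0.764).

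The enrichment over total RNA differed between 60 min and 30 min for 6 members by limma's interaction term. It was higher at 60 min for Polr2a (2.01 ± 0.71, adjusted p = 0.042), Med16 (1.53 ± 0.52, adjusted p = 0.035), Med11 (1.15 ± 0.38, adjusted p = 0.032) and Med22, chosen after its values were seen (1.05 ± 0.24, adjusted p = 0.0046). It was lower at 60 min for Taf15 (-2.03 ± 0.43, adjusted p = 0.0027) and Med12l (-1.19 ± 0.36, adjusted p = 0.02). Without replicate 1 of newly transcribed RNA at 60 min, Polr2a (1.39, adjusted p = 0.19), Med16 (0.94, adjusted p = 0.19) and Med11 (0.80, adjusted p = 0.15) were not called. With the 30 min arrays averaged in threes, adjusted p was 0.27 for Polr2a, 0.12 for Taf15, 0.31 for Med16 and for Med11, and 0.21 for Med12l.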

How the results depend on the processing

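Among values of single members under an alternative, 881 kept direction and call, 72 lost the call and 1 reversed: Med9 at 60 min, at 0.037 (adjusted p = 0.88) with the mean of its probe sets. Counts below are members higher and lower. By adjusted p alone they were 12 and 8 at 1 h of actinomycin D, 7 and 15 at 2 h, 7 and 17 for 2 h against 1 h, 17 and 37 for newly transcribed over total RNA at 30 min, 19 and 34 in the 2F set, 5 and 21 for 15 min against 30 min, 1 lower for total RNA at 30 min against untreated, and 10 higher for enrichment at 60 min minus 30 min. At a mean log2 of 7 or more, 5 fell at 2 h of actinomycin D, 13 were depleted in the 2F set, 0 and 0 differed in pre-existing RNA and 1 enrichment was lower. With no filter, 2 fell at 1 h, 0 were higher in pre-existing RNA and 2 enrichments were higher. With the mean of all probe sets, 1 was higher and 0 lower at 1 h, and 1 enrichment was lower, as with quantile normalization. With the 30 min arrays averaged in threes, 0 and 0 enrichments differed. In 1 fit of all 45 arrays, 3 were higher in pre-existing RNA and Polr2a at 1 h had an adjusted p of 0.2. The replicate block gave 2 higher in pre-existing RNA and moved no other count by over 1.5 times.

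Leaving out 1 array of a group of 3 gave 0 to 1 higher and 0 to 1 lower at 1 h of actinomycin D, 7 to 11 lower at 2 h, 0 to 2 higher and 7 to 9 lower for 2 h against 1 h, 5 to 7 enriched and 14 to 21 depleted at 60 min, 9 to 12 and 17 to 20 in the 2F set, 0 to 2 higher and 1 to 3 lower in pre-existing RNA, 2 to 5 lower for 15 min against 30 min, and 0 to 9 higher and 1 to 3 lower for enrichment at 60 min minus 30 min. Half-lives from the 60 min fractions were not usable: the ratios of pre-existing and newly transcribed to total RNA correlated at -0.0881. Their median over the 52 of 73 members with a mean log2 of 7 or more (7 of 16 Taf and 22 of 31 Med), which leaves out the short values of Taf7, Med26 and Taf8 (2.33, 3.01 and 4.21 h), was 25.8 h, with 25.9 h for Polr2, 36.5 h for Gtf2, 33.7 h for Taf and 22.1 h for Med. Quantile normalization gave 21.0, 21.1, 30.5, 28.5 and 18.6 h. Reading 2 h over the log2 loss under actinomycin D gave 1.45 h in all. By class it gave 1.45 h for Gtf2, 1.57 h for Taf and 1.01 h for Med. This covers only the 9 members called lower, whose values are 2 h or less by that choice. Gtf2 is Gtf2b alone, which changed by 0.21 in the first hour. The losses are also relative to other transcripts, so these values cannot be set against those from labelling.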
